A study of Mus musculus with 2 samples.

Results

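The cells described here are non-cycling, duct-like cells of a mouse liver tumour driven by AKT1 and MYC. They were 896 of the 10313 AKT1.MYC cell barcodes whose mitochondrial genes took at most 20% of the unique molecular identifiers (UMIs, 1 per captured RNA molecule), a share of 8.69% (95% exact binomial interval 8.15 to 9.25). A cell was taken when at least 2 of Krt19, Krt7, Epcam and Cldn7 had a UMI, when Krt19, Krt7, Epcam and Wfdc18 together took at least 0.25% of its UMIs, and when Wfdc18 alone took at least 0.1%. Cells with a UMI in more than 2 of the 8 division genes Mki67, Top2a, Cenpf, Birc5, Pbk, Prc1, Hmmr and Cdc20 were left out, as were cells in which C1qa, C1qb and C1qc took 0.5% or more. The selection therefore used measured values. The levels of those 16 genes describe the selection and are given with no test.

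The series held 17078 barcodes from 2 single-cell RNA libraries, one per tumour model, of tumours labelled as hepatocellular carcinoma of C57BL/6 mice and resected 14 weeks after plasmids were injected into the tail vein. AKT1.MYC mice received 10 ug Akt1, 10 ug human c-Myc and 5 ug of the Sleeping Beauty transposase, which inserts the plasmid genes into the genome. NRAS.MYC.ND mice received 19 ug human N-Ras, 1 ug human c-Myc and 2 ug of the transposase. Both groups thus carried an injected MYC. The species of the Akt1 sequence and the number of animals behind each library were not given in the sources used here, and no liver without a tumour was among the samples. With 1 library per model there was no replicate, so no difference between groups of cells was tested. All intervals cover counting error only.

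Cells of the small and large bile ducts, the cholangiocytes, are told from hepatocytes by the keratins Krt7 and Krt19, by the surface protein Epcam and by the transcription factor Sox9. Hydrodynamic tail vein injection delivers plasmids mainly to hepatocytes, the secretory and metabolic cells of the liver. Liver tumours can hold cells with hepatocyte features, cells with duct features or both. The AKT kinase promotes growth and nutrient uptake, and MYC is a transcription factor that raises ribosome and nucleotide production and cell division.

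Among the cells within the mitochondrial limit, 3624 had at least 2 of the 4 duct genes, 1717 of these reached the summed share of 0.25%, 1401 were also under the C1q limit and 991 also had enough Wfdc18. Of those 991, 896 had at most 2 of the division genes and 95 had 3 or more, which form the cycling duct-like cells used as a comparison. A further 366 cells met every criterion but Wfdc18 and form the low Wfdc18 duct-like cells. The Wfdc18 limit did not fall in a gap: 34 selected cells had a share from 0.1% to under 0.11%, and 29 cells left out had a share from 0.09% to under 0.1%. The nearest cells on the 2 sides stood at 0.1% and 0.09997%. In the 896 cells Wfdc18 took a median of 0.303% of UMIs and at most 6.22%. No division gene had a UMI in 572 of the cells, 1 had in 238 and 2 had in 86. This limit counts genes with a UMI, so it depends on the depth of a cell and is easier to meet in shallow cells.

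The 896 cells held 12702189 UMIs, with a median of 6482.5 and a range of 509 to 71658 per cell. Cycling duct-like cells were deeper, with a median of 30429, low Wfdc18 cells had a median of 7815, and 4349 cells with C1q genes at 0.5% or more (the C1q cells, macrophage-like by Lyz2, Csf1r and Adgre1) had a median of 1281. The 2 libraries shared 17 barcodes, 1 of them among the 896. In NRAS.MYC.ND the same rule took 3 of 6097 cells, or 0.0492% (0.0101 to 0.144), and no cycling cell, which allows a share of up to 0.0492% (3 counts; the exact 95% upper bound was 0.0605%). The 15 low Wfdc18 cells of NRAS.MYC.ND had Krt7 at 1272 CPM (UMIs per 1000000 UMIs of the summed cells) and Epcam at 1760 CPM, but Tff2 at 12.4 CPM and S100b at 6.18 CPM, over 161918 UMIs. The corresponding 366 cells of AKT1.MYC had Tff2 at 494 CPM and S100b at 150 CPM.

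The label was checked against the markers. All 6 genes given as markers of these cells were above 50 CPM in the sum over the 896 cells, and 8 of 10 cholangiocyte markers were. The summed level of the cholangiocyte markers was 28731 CPM, against 7126 in the C1q cells and 5533 in 18 hepatocyte-like cells, taken where 6 hepatocyte genes made up at least 3% of UMIs. The 10 hepatocyte markers summed to 3136 CPM against 58367 in the hepatocyte-like cells. Markers of stomach and intestine summed to 19.6 CPM, against 5.66 in the C1q cells and 65.7 in the hepatocyte-like cells, with 5 of 9 at 0 (Gkn2, Gkn3, Muc5ac, Muc6 and Cdx2). Tff2, at 304 CPM, was not among these 9. Of 7 markers of pancreas acinar and islet cells, 6 were at 0. The list summed to 74.7 CPM, all of it Cela1, against 54.9 in the C1q cells and 65.7 in the hepatocyte-like cells. The rule had used 3 of the 6 markers and 4 of the 10 cholangiocyte markers (Krt19, Krt7, Epcam and Cldn7), whose levels the selection fixed. The 3 markers it did not use (Tff2, Gabrp and S100b) summed to 692 CPM, against 90.2 in the C1q cells and 49.3 in the hepatocyte-like cells. The 6 cholangiocyte markers it did not use summed to 25606 CPM, nearly all of it Spp1, against 6726 and 5402. Whether a cell carried an injected plasmid was not tested.

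The promoters of 4 genes named in the comparison across the Wfdc18 limit are printed. They are Wfdc18, on which the limit rests, and Anxa10, Mmp7 and Cldn4, which held the AP-1 core described below. The 8 genes named in that comparison were searched in RefSeq promoters of build GRCm38.p6, which run from 250 bases before to 50 bases after a start, and 6 had an entry (Krt17 and Fabp4 did not). Capitals mark the AP-1 core TGANTCA, where the FOS and JUN proteins bind, and the TATA box TATAAA, each searched on both strands. The AP-1 core was present in 7.81% and TATAAA in 13.6% of all 32851 promoters of that length. The sequences are Wfdc18 (chr11:83708754-83709053, plus strand), Anxa10 (chr8:62123144-62123443, minus strand), Mmp7 (chr9:7691840-7692139, plus strand) and Cldn4 (chr5:134946885-134947184, minus strand).
Wfdc18: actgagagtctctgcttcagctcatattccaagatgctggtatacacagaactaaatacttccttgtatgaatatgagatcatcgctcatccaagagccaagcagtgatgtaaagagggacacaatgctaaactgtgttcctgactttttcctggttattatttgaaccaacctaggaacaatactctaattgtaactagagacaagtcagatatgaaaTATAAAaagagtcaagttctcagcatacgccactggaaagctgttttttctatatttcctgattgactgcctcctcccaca
Anxa10: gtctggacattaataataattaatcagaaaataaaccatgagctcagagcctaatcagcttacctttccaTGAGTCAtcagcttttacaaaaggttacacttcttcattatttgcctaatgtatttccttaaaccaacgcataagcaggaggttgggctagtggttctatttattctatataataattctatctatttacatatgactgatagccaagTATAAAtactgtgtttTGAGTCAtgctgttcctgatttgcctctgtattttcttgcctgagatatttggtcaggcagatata
Mmp7: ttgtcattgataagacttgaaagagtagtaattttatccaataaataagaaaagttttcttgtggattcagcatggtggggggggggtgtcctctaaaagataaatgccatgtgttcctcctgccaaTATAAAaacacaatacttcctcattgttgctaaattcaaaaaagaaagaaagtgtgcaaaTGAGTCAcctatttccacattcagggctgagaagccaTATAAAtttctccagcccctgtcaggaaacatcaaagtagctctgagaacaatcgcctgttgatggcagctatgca
Cldn4: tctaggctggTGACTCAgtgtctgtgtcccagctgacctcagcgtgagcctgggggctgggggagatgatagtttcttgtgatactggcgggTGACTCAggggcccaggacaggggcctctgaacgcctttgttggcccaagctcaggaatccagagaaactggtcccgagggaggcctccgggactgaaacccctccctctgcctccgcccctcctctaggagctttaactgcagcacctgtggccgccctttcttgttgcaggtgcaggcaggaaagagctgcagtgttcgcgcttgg
Counted from the 5′ end of each window, Wfdc18 held TATAAA from base 220 and no AP-1 core. Anxa10 held AP-1 cores from bases 71 and 235 and TATAAA from base 219. Mmp7 held an AP-1 core from base 188 and TATAAA from bases 128 and 225, and Cldn4 held AP-1 cores from bases 11 and 93. A second Mmp7 entry (chr9:7692091-7692390, plus strand) held neither. Of the other 2 genes, S100g held TATAAA from base 251 and no AP-1 core, and Rgs5 held neither. Apart from Wfdc18, the printed genes are thus those with an AP-1 core and do not stand for all genes searched. A match describes letters and is not a measured binding site.

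The defining genes were spread unevenly over the cells. Wfdc18, a small secreted protein of the whey acidic protein family (chr11:83709015-83711348, plus strand, mm10), had 7188 CPM (7141 to 7235) in the sum, 5726 in the cycling cells and 699 in the C1q cells. The type I keratin Krt19 (chr11:100140810-100148665, minus strand) had 1489 CPM, against 1320 in cycling and 1716 in low Wfdc18 cells. Its partner Krt7, a type II keratin (chr15:101411043-101430313, plus strand), had 725 CPM, against 739 and 748. All 3 groups were selected on these keratins, so the values describe the selection. In the 564 cells with at least 3000 UMIs, Krt19 was found in 98.4% and ranged from 0 over a median of 1080 to 6639 CPM, and Krt7 was found in 92.2% with a median of 369 and a highest value of 8035 CPM.

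Tff2, a trefoil peptide of mucus (chr17:31141049-31144282, minus strand), had 304 CPM in the 896 cells, 182 in cycling cells and 494 in low Wfdc18 cells. It was uneven over the cells: its median over the 564 deeper cells was 75.1 CPM, its 90th percentile 775 and its highest value 4283, with a UMI in 66.1%. Gabrp, a subunit of the GABA type A receptor found in epithelia (chr11:33550781-33578959, minus strand), had 201 CPM, against 187 and 152. S100b, a calcium-binding protein best known from glia (chr10:76253853-76261159, plus strand), had 188 CPM, against 167 and 150. In the C1q cells Tff2, Gabrp and S100b had 41.7, 21.1 and 27.4 CPM.

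Duct RNA was also counted in cells taken on genes of other cell types. The 8 duct genes stood in the C1q cells at 9.73 to 14.6% of their level in the 896 cells, a narrow range over genes whose own levels differ widely. In 720 cells where neutrophil genes took at least 1% of UMIs (median 1850 UMIs), Wfdc18 stood at 805 CPM, which as a share of UMIs lies just below the 0.1% the rule asks for. After each cell was thinned to 1000 UMIs, leaving out 110 of the 896 cells, 1729 C1q cells and 50 neutrophil cells, a Wfdc18 UMI was left in 92.5% of the duct-like cells, 48.4% of the C1q cells and 52.2% of the neutrophil cells, against 100%, 78.5% and 73.9% before thinning. For Krt19 the thinned shares were 64.3%, 21.6% and 18.8%, and for Tff2 17.8%, 4.35% and 4.03%. In the opposite direction, 9 of 10 macrophage markers stood in the duct-like cells at 4.75 to 7.16% of their C1q level, and Ly6c2 at 21.4%. The part of free RNA in the levels of single cells was not tested.

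**Figure D1:**
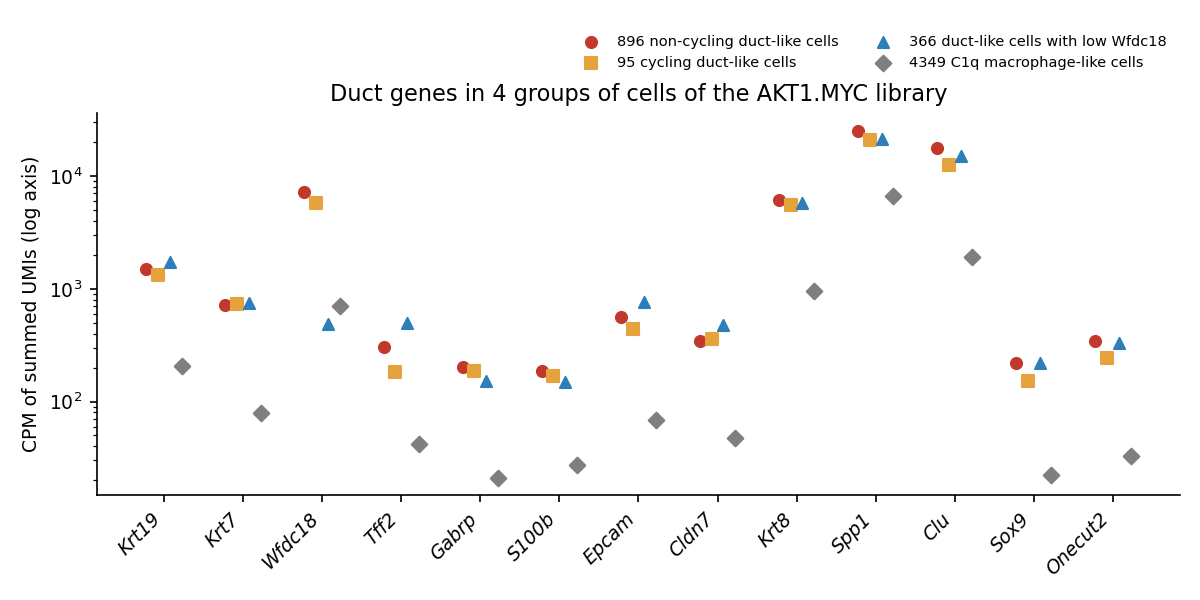
CPM of summed UMIs (vertical log axis) of duct genes in 4 groups of AKT1.MYC cells; each point is 1 sum, and counting intervals are smaller than most points. Wfdc18 separates the low Wfdc18 cells (487 CPM) from the selected cells (7188 CPM) by construction, and Krt19 and Krt7 were also used by the rule. Krt8, which was not, is at 6136 CPM in the selected cells and 953 CPM in the C1q cells.

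Secreted proteins took a large share of the RNA. Osteopontin (Spp1), a matrix phosphoprotein made by cholangiocytes and macrophages, had 25177 CPM, against 20962 in cycling cells, 21506 in low Wfdc18 cells and 6670 in C1q cells. Clusterin (Clu), a secreted chaperone, had 17590 CPM, against 12413, 14980 and 1913. Lipocalin 2 (Lcn2), an iron-scavenging protein of inflamed epithelium, had 3864 CPM, against 3722, 4104 and 672. In the 564 deeper cells Spp1 ranged from 1399 to 110811 CPM. A UMI of Spp1 was also found in 99.9% of the C1q cells, of Clu in 96.1% and of Lcn2 in 77.6%, and Lcn2 had 2765 CPM in the neutrophil cells. Wfdc2, a relative of Wfdc18, had 755 CPM against 820 in cycling and 860 in low Wfdc18 cells. Of 32 genes listed for mucosal and ductal secretion, the mucins Muc5ac and Muc6, Agr2, Gkn2 and Gkn3 were at 0 in 12702189 UMIs, which allows up to 3 UMIs each. Muc1, a membrane mucin, had 79.8 CPM.

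Keratins and junction proteins were those of a simple epithelium. Krt8 had 6136 CPM and Krt18 5642 CPM, against 953 and 844 in the C1q cells. The tight-junction protein Cldn3 had 924 CPM and Cldn7 347 CPM, and the adhesion protein Cdh1 (E-cadherin) 216 CPM. Cd24a, a surface glycoprotein of progenitor and epithelial cells, had 844 CPM. These levels were 6.18 to 7.32-fold those in the C1q cells for Cd24a, Krt8, Krt18, Cldn3 and Cldn7. Cldn4 was low in the sum, at 90.8 CPM.

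Transcription factors of the liver and bile ducts differed in level. Onecut2, a homeobox factor of early liver and bile duct development, had 347 CPM, and among genes with at least 300 CPM it had the largest ratio to the C1q cells, 10.5-fold (log2 ratio 3.39, 3.25 to 3.53). Sox9, which marks bile ducts and progenitor cells, had 219 CPM (9.89-fold the C1q level). The Notch target Hes1 had 506 CPM and Sox4 582 CPM. The epithelial factors Ehf, Elf3, Klf5 and Gata6, lay between 115 and 167 CPM. Hnf4a, a main regulator of hepatocyte genes, had 10.5 CPM against 115 in the hepatocyte-like cells. Cebpb, which acts in hepatocytes and in macrophages, had 172 CPM against 394 in the hepatocyte-like and 718 in the C1q cells.

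The injected and AKT pathway genes are counted as mouse genes, so the share that comes from a plasmid cannot be told apart from the animal's own gene. Akt1 had 265 CPM in the 896 cells, 273 in cycling, 237 in low Wfdc18 and 130 in C1q cells. Myc had 112 CPM, against 99.3, 108 and 23.3. Both were about as high in the cycling cells as in the non-cycling ones, with log2 ratios of −0.04 (−0.15 to 0.07) for Akt1 and 0.18 (−0.00 to 0.36) for Myc. Nras, the gene whose human form was injected in the other model, had 71.8 CPM. Cdkn1a, the p53-induced inhibitor of the cell cycle, had 527 CPM, against 430 in cycling cells.

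Against the cycling duct-like cells, the non-cycling cells had lower levels of division genes, the genes that separated the groups. Among 3327 genes with at least 50 CPM in one of the sums and 30 UMIs over both, 12 were at least 2-fold higher (0.361%) and 56 at least 2-fold lower (1.68%) in the non-cycling cells, and the median log2 ratio was 0.01. The 10 lowest named genes were Cenpf, Mki67, Pbk, Pclaf, Cdca3, Birc5, Rrm2, Ccnb2, Top2a and Prc1. Of these, 6 were in the rule and describe it. Pclaf, a factor bound to the replication clamp PCNA, was not in the rule and had 6.46 CPM against 118 (log2 ratio −4.19, −4.56 to −3.84), and Rrm2, a subunit of ribonucleotide reductase, had 4.65 CPM against 64.9. These 2 genes belong to DNA synthesis. Of the 28 listed cell cycle genes, 23 were at least 2-fold lower and 0 at least 2-fold higher, with a median log2 ratio of −2.91; 8 of them were in the rule, and of the other 20, 15 were at least 2-fold lower, with a median of −1.90. The groups were split on genes of this process, so nothing is read from these counts. Among all genes, 3.35% of 14825 genes with at least 10 UMIs were at least 2-fold lower and 7.68% at least 2-fold higher, with a median of 0.13.

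Pigr, Nupr1, Ly6d and Cldn4 were the genes named as higher in the non-cycling cells. Pigr, which carries IgA across epithelia, had 50.9 CPM against 15.6 (log2 ratio 1.71, 1.28 to 2.17). Nupr1, a stress-induced chromatin protein, had 112 CPM against 41.0 (1.44, 1.18 to 1.72). Ly6d, a surface protein of some lymphoid and epithelial cells, had 723 CPM against 267 (1.44, 1.33 to 1.54), and Cldn4 had 90.8 against 34.8 (1.39, 1.10 to 1.69). Ly6d was uneven over the cells: over the 564 deeper cells its median was 91.3 CPM, its 90th percentile 2030 and its highest value 16960. The ratio of Pigr was −0.74 on the log2 scale when every cell was thinned to 1000 UMIs.

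Listed MYC target genes had a median log2 ratio of −0.76, against 0.13 over all genes. Of the 18, 2 were at least 2-fold lower, where 3.35% of all genes were, and 0 at least 2-fold higher, where 7.68% were. Srm, which makes spermidine, had 45.3 CPM against 109 (−1.26, −1.46 to −1.06), and the replication helicase subunit Mcm4 had 11.4 against 33.1 (−1.54, −1.91 to −1.15). The groups were split on division genes and the list holds genes of division such as Mcm4, so its direction may be partly fixed. The nucleolar proteins Ncl and Npm1 had 507 against 983 CPM (−0.95) and 1127 against 1760 CPM (−0.64). Glycolysis genes had 0 of 18 past 2-fold in either direction and a median of −0.06, and cholesterol synthesis 0 of 15 and −0.20. Psat1, an enzyme of serine synthesis, had 26.3 CPM against 69.5 (−1.40).

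Several lists had medians above that of all genes, 0.13, where 7.68% of all genes were at least 2-fold higher. The 18 early response genes had a median log2 ratio of 0.65, with 1 at least 2-fold higher, a share no larger than that of all genes: Jun had 2444 CPM against 1382, Atf3 2813 against 1746 and Fos 2402 against 1651. The 18 interferon response genes had a median of 0.62 with 6 at least 2-fold higher, most of them at low levels; Irf7, which turns on interferon genes, had 48.8 CPM against 22.5. The 15 hypoxia response genes had a median of 0.49 with 1 at least 2-fold higher. The 15 genes of MHC class I presentation had a median of 0.47 and the 25 measured hepatobiliary transcription factors 0.47, with 0 past 2-fold in either list. H2-K1, a class I heavy chain, had 1242 CPM against 875. Scd1, the desaturase of stearate, had 341 CPM against 160 (1.09, 0.96 to 1.23).

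Depth and markers of other cell types also differed between the 2 groups, and their part in the ratios was not tested. Cycling cells had a higher median UMI number, and the macrophage markers summed to 1465 CPM in the non-cycling and 1556 in the cycling cells, the neutrophil markers to 426 and 260 and the erythroid markers to 178 and 45.02. With only cells of at least 10000 UMIs (396 against 71, an alternative chosen after seeing the data), 9 genes were at least 2-fold higher and 54 at least 2-fold lower, and the medians of the MYC target, early response and interferon lists were −0.72, 0.64 and 0.66. Thinning every cell to 1000 UMIs gave 354 higher and 178 lower.

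**Figure D2:**
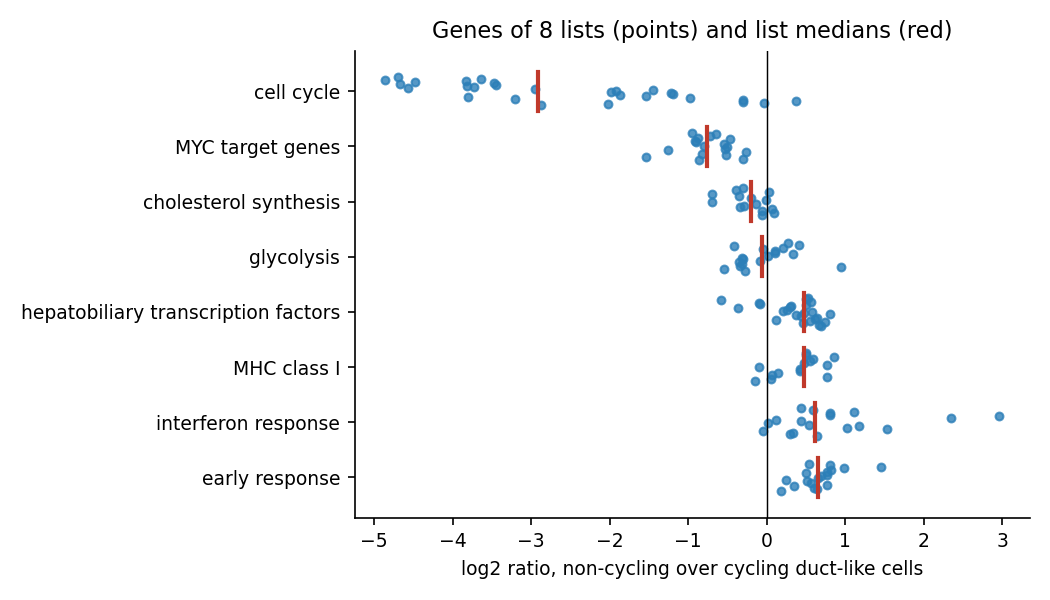
Log2 ratio of non-cycling (896) over cycling (95) duct-like cells on the horizontal axis for the genes of 8 lists with at least 10 UMIs over both sums; points are genes and red bars list medians. The cell cycle list, which holds 8 genes of the rule, lies far to the left (median −2.91), the MYC target list lies left of 0 (median −0.76), and the early response list lies right of 0 (median 0.65).

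Against the low Wfdc18 cells, the selected cells differed in few genes. Among 3265 genes, 7 were at least 2-fold higher (0.214%) and 7 at least 2-fold lower (0.214%), with a median log2 ratio of 0.00. Wfdc18 itself had a log2 ratio of 3.88, which the rule fixed. Krt17, a keratin of basal and stressed epithelium (chr11:100256217-100261029, minus strand), had 94.4 CPM against 23.5 (2.01, 1.72 to 2.31). Anxa10, an annexin of gastric epithelium, had 54.4 CPM against 19.5 (1.48, 1.16 to 1.82). Rgs5, a regulator of G protein signalling widely used as a pericyte marker, had 520 CPM against 217 (1.26, 1.17 to 1.36). Col1a1 (117 against 65.0 CPM) and Pdgfrb (7.09 against 4.42) were also higher. The list of fibroblast and pericyte markers stood at 1066 against 543 CPM, of which Rgs5 itself made up 520 and 217. Over sub-clusters 0 to 5 of the selected cells, described below, Rgs5 stood at 509, 515, 357, 539, 597 and 266 CPM. The list stood there at 930, 725, 13792, 1192, 825 and 820 CPM. The part of such cells in the Rgs5 difference was not tested.

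Genes lower in the selected cells were of several kinds. Mmp7, a secreted protease of ductal epithelium (chr9:7692090-7699585, plus strand), had 207 CPM against 554 (−1.42, −1.50 to −1.34). S100g, an intracellular calcium carrier, had 128 CPM against 313 (−1.29, −1.40 to −1.19), and Cldn4 had 90.8 against 216 (−1.25, −1.38 to −1.13). Fabp4, a fatty acid carrier of adipocytes, endothelium and macrophages, had 66.3 CPM against 159 (−1.26, −1.40 to −1.11). Fabp4 had 219 CPM in the C1q cells, and the endothelial markers summed to 79.8 CPM in the selected and 98.7 in the low Wfdc18 cells; their part in the Fabp4 difference was not tested.

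List medians across the Wfdc18 limit lay between −0.48 and 0.21, but some lists held a larger share of genes past 2-fold than all genes did. Of 26 duct keratin and junction genes, 0 were at least 2-fold higher and 5 at least 2-fold lower (among them Cldn4, Sfn, Krt23 and Cldn6). Their median log2 ratio was −0.18. Among 15185 genes, 3.4% were that much higher and 2.91% that much lower, with a median of 0.00. Without the 4 genes of the rule, 0 of 22 were that much higher and 5 that much lower, with a median of −0.15. The summed share asked for by the rule counts Wfdc18, so cells low in Wfdc18 needed more Krt19, Krt7 and Epcam to reach it. The direction of this list may thus be partly fixed. The 25 measured secretion genes had 5 higher and 1 lower, with a median of 0.11. Wfdc18, whose ratio the rule fixed, is 1 of the 5 and describes the selection. The MAPK output genes had 2 of 15 lower and a median of −0.48; Ccnd1, a cyclin of the G1 phase, had 124 CPM against 224. MYC targets, glycolysis and interferon response genes had medians of −0.03, 0.02 and 0.02 with 0 of 18 past 2-fold in each. With cells of at least 10000 UMIs on both sides, 6 genes were at least 2-fold higher and 10 at least 2-fold lower, and Krt17 had a log2 ratio of 2.14 and Mmp7 of −1.11.

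The same genes were followed along the Wfdc18 share in 7 bands, from under 0.05% to 2% and above. The bands held the 542 duct-like cells with at least 10000 UMIs. Cells of the low bands needed more Krt19, Krt7 and Epcam to meet the rule, and the part of this in the orders below was not tested. From the lowest band to the highest, Krt17 stood at 21.7, 24.5, 25.9, 52.4, 132, 159 and 316 CPM and Rgs5 at 198, 222, 324, 466, 548, 664 and 1098 CPM, each band above the one before. Anxa10 stood at 15.7, 32.6, 49.6, 38.4, 70.5, 60.7 and 109 CPM, with the fourth and the sixth band below the band before. Mmp7 went the other way, at 405, 456, 335, 241, 136, 84.3 and 69.3 CPM, with the second band above the first. Cldn4 stood at 213, 181, 96.6, 87.7, 79.4, 58.5 and 63.1 CPM, with the highest band above the sixth. S100g stood at 382, 233, 244, 99.0, 153, 58.5 and 43.1 CPM. Fabp4 was high in the lowest band only, at 244, 49.6, 55.6, 60.3, 67.5, 42.8 and 41.6 CPM. The endothelial markers summed there to 140, 49.0, 61.2, 98.2, 79.4, 50.7 and 46.2 CPM. Tff2 had no steady order, with 647 CPM in the lowest band, 373 in the second, 418 in the third, 363 from 0.5% to under 1% and 145 in the highest. Onecut2 lay between 321 and 387 CPM in all 7 bands. Across the 396 selected cells with at least 10000 UMIs, all from 1 library, Pearson's r of log-scaled values with Wfdc18 was 0.28 for Krt17, 0.28 for Rgs5, 0.27 for Anxa10 and −0.23 for Mmp7, which are weak relations in sparse counts.

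**Figure D3:**
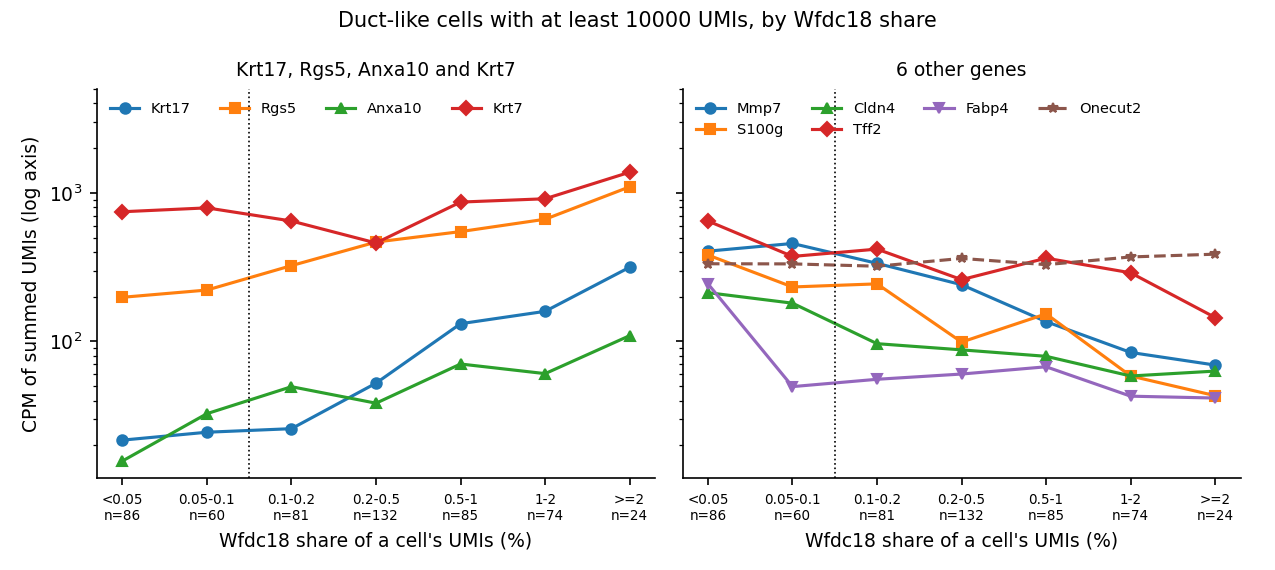
CPM of summed UMIs (vertical log axis) against the share of a cell's UMIs taken by Wfdc18 in 7 bands, for AKT1.MYC duct-like cells with at least 10000 UMIs; n is the number of cells in a band and the dotted line is the 0.1% limit of the rule. Krt17 is at 21.7 CPM in the lowest and 316 CPM in the highest band, Mmp7 at 405 and 69.3 CPM, and Onecut2 (dashed) is nearly level.

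Against the 18 hepatocyte-like cells of the same library, the selected cells had low levels of hepatocyte genes, in a comparison that rested on 60908 UMIs on the hepatocyte side. Among 3615 genes, 898 were at least 2-fold higher (24.8%) and 530 at least 2-fold lower (14.7%), with a median log2 ratio of 0.29; median-of-ratios scaling gave 675 higher and 682 lower. All 29 measured genes of hepatocyte secretion and metabolism were at least 2-fold lower, with a median log2 ratio of −5.32, where 23% of 7532 genes with at least 10 UMIs were that much lower and 16.8% that much higher, with a median of −0.00. The hepatocyte-like cells were chosen on 6 such genes, so the list's direction is partly fixed. Apoa1, the main protein of high-density lipoprotein, had 11.5 CPM against 10229, and Cps1, the first enzyme of the urea cycle, had 0.709 CPM against 607. Igfbp1, a liver-secreted binder of insulin-like growth factors, had 4.02 CPM against 3202.

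Of 19 measured keratin and junction genes, 15 were at least 2-fold higher than in the hepatocyte-like cells and 0 at least 2-fold lower, with a median log2 ratio of 1.42. The list holds Krt19, Krt7, Epcam and Cldn7, on which the cells were selected. The hepatocyte-like cells were taken with a UMI in fewer than 2 of these 4, so these genes were fixed from both sides. Of the 15 measured genes without these 4, 11 were at least 2-fold higher and 0 lower, with a median of 1.29. The direction of the 15 may be partly fixed too, since the compared cells were chosen to be low in duct genes. Of the 22 measured hepatobiliary transcription factors, 11 were higher and 7 lower. Among all 7532 genes of this comparison, 16.8% were at least 2-fold higher and 23% at least 2-fold lower. The named higher genes, of which Krt7 and Krt19 describe the rule, were Rgs5, Tesc, Krt7, Ramp1, Sox4, App, Hbegf, Krt19, Marcksl1 and Tm4sf1. Sox4 had 582 CPM against 32.8 (log2 ratio 4.15, 2.29 to 7.19), an interval that shows how few UMIs stood on the other side. Gabrp had no UMI in the hepatocyte-like cells, so it was at least 4.08-fold higher against a floor of 3 counts over the group, and Epcam, a gene of the rule, likewise at least 11.5-fold higher.

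RNA of some hepatocyte-secreted proteins was measured in the duct-like cells. Transthyretin (Ttr) had 1730 CPM, against 8538 in the hepatocyte-like and 400 in the C1q cells, and albumin (Alb) had 281 CPM, against 11214 and 115. In the neutrophil cells Ttr stood at 554 CPM, or 32.0% of its level in the duct-like cells, and Alb at 191 CPM, or 68.0%. The part of free RNA in these levels was not tested. In the 564 deeper cells a Ttr UMI was found in 98.9% and an Alb UMI in 82.6%, and Alb reached 5375 CPM in 1 cell. Afp, a fetal liver protein, stood at 2.13 CPM. Across the 396 deepest cells the r of Ttr and Alb was 0.53, a description over cells of 1 library that share its free RNA.

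Clustering the 896 cells gave 6 sub-clusters, which are described by their leading genes and have no names. Sub-cluster 1 (273 cells, 30.5%, median 25404 UMIs) was led by Hbegf, Cxcl10, Ankrd1, Cxcl1 and Edn1, and sub-cluster 4 (128 cells, 14.3%, median 24854 UMIs) by Serpina1b, Sycn, Dmbt1, Spink1 and Hpx. Together they held 44.8% of the cells and 80.5% of their UMIs. Sub-cluster 0 (111 cells) had Malat1, a nuclear RNA, at 60180 CPM against 14040 in the other cells, and mitochondrial genes at a median of 5.44%. Sub-cluster 2 (18 cells) was led by collagen and matrix genes, with the fibroblast markers at 13792 CPM. Sub-cluster 3 (112 cells, median 2046 UMIs) was led by Hdc, Lyve1, Retnlg and Il1r2, genes of granulocytes and endothelium, with S100a8 at 1172 CPM, and sub-cluster 5 (254 cells, median 1559 UMIs) had erythroid genes at 2295 CPM and macrophage markers at 2854 CPM. Over sub-clusters 0 to 5 the macrophage markers stood at 2341, 1138, 1427, 3602, 1135 and 2854 CPM, and the hepatocyte markers at 2898, 2576, 2435, 2412, 4619 and 3078 CPM. Macrophage markers were lowest in sub-clusters 1 and 4, and hepatocyte markers highest in sub-cluster 4.

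Sub-clusters 1 and 4 had like depths and like mitochondrial shares (medians 1.73% and 2.21%) but unlike genes, which are given as a description because the same genes made the clusters. Of 18 early response genes, 16 were at least 2-fold higher in sub-cluster 1 and 0 in sub-cluster 4, with a median log2 ratio of 1.29, where 5.4% of 13749 genes were that much higher in sub-cluster 1 and 3.11% in sub-cluster 4. The transcription factors Atf3, Jun and Fos had 3884, 3167 and 3129 CPM in sub-cluster 1 and 1035, 1143 and 1134 CPM in sub-cluster 4. Hbegf, a ligand of the EGF receptor, had 761 CPM against 143 (2.41, 2.28 to 2.55), and the small heat shock protein Hspb1 2439 against 778. MAPK output genes had 7 of 14 higher and 1 lower (median 1.01), and YAP and Hippo targets 4 of 12 higher and 0 lower (0.61), among them Ankrd1 (373 against 121 CPM) and Ccn1 (354 against 158 CPM). The neutrophil-attracting chemokine Cxcl1 had 313 CPM against 91.7, and Cdkn1a 675 against 288.

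Sub-cluster 4 had more RNA for secreted proteins of both duct and hepatocyte type. Of 24 measured hepatocyte genes, 12 were at least 2-fold higher in sub-cluster 4 and 0 in sub-cluster 1, with a median log2 ratio of −1.02 for sub-cluster 1 over sub-cluster 4. Albumin had 452 CPM against 208, fibrinogen beta (Fgb) 280 against 74.8 and hemopexin (Hpx), which binds heme, 149 against 24.8. Of 25 secretion genes, 9 were at least 2-fold higher in sub-cluster 4 and 0 in sub-cluster 1. Spink4, a protease inhibitor of mucous glands, had 268 CPM against 52.5, Spink1 94.4 against 14.7 and Tff2 488 against 251. The 2 sub-clusters did not differ by 2-fold in Wfdc18 (7958 against 7237 CPM), Krt19 (1434 against 1603), Onecut2 (354 against 344), Akt1 (299 against 263) or Myc (117 against 121), and 0 of 18 MYC targets were past 2-fold.

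**Figure D4:**
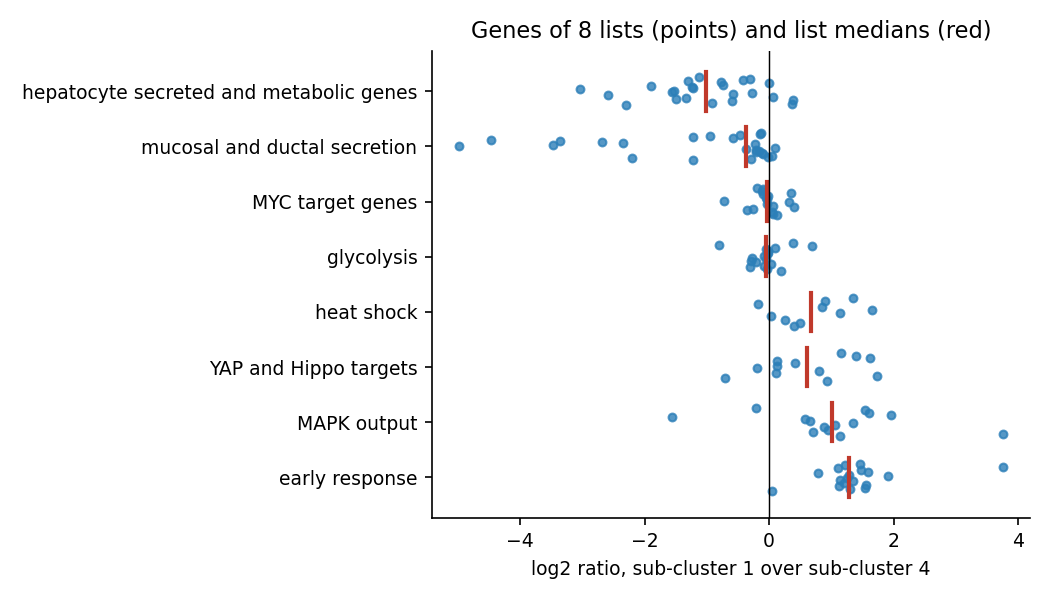
Log2 ratio of sub-cluster 1 (273 cells) over sub-cluster 4 (128 cells) on the horizontal axis for the genes of 8 lists with at least 10 UMIs over both sums; points are genes and red bars list medians. Early response genes lie to the right (median 1.29), hepatocyte genes to the left (median −1.02), and MYC targets at 0 (median −0.04).

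Across single cells the same genes went together in the 396 cells with at least 10000 UMIs. The r of Atf3 with Jun was 0.82, with Hbegf 0.71 and with Hspb1 0.56, and that of Ly6d with Spink4 was 0.42 and with Tff2 0.38. Wfdc18 had an r of −0.11 with Atf3 and 0.06 with Spink4. These values describe cells that share 1 library and its free RNA. At a resolution of 1.0 in place of 0.5 the clustering gave 10 sub-clusters, in which 113 of the 128 cells of sub-cluster 4 stayed together and sub-cluster 1 was split mainly into 3 of 102, 87 and 80 cells.

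Depth went with RNA of other cell types. In the 110 cells with under 1000 UMIs, the lysozyme gene Lyz2 of macrophages stood at 2927 CPM, the neutrophil gene S100a8 at 1072, the leukocyte gene Ptprc at 145 and the 6 erythroid genes together at 9069. In the 166 cells with at least 30000 UMIs they stood at 372, 77.8, 5.95 and 54.0 CPM. Krt19, a gene of the rule, had 1481 and 1629 CPM at the 2 ends and lower values in between. Gabrp had 48.2 and 206, S100b 36.1 and 202, Clu 6721 and 16833 and Myc 36.1 and 127. The 8 division genes of the rule summed to 253 and 25.9 CPM at the 2 ends, against 587 in the cycling duct-like cells. Whether some shallow cells were dividing was not tested. The 396 cells with at least 10000 UMIs held 88.7% of the UMIs of all 896, so the sums given above are mainly theirs. The part of other cells' RNA in the values of shallow cells was not tested.

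**Figure D5:**
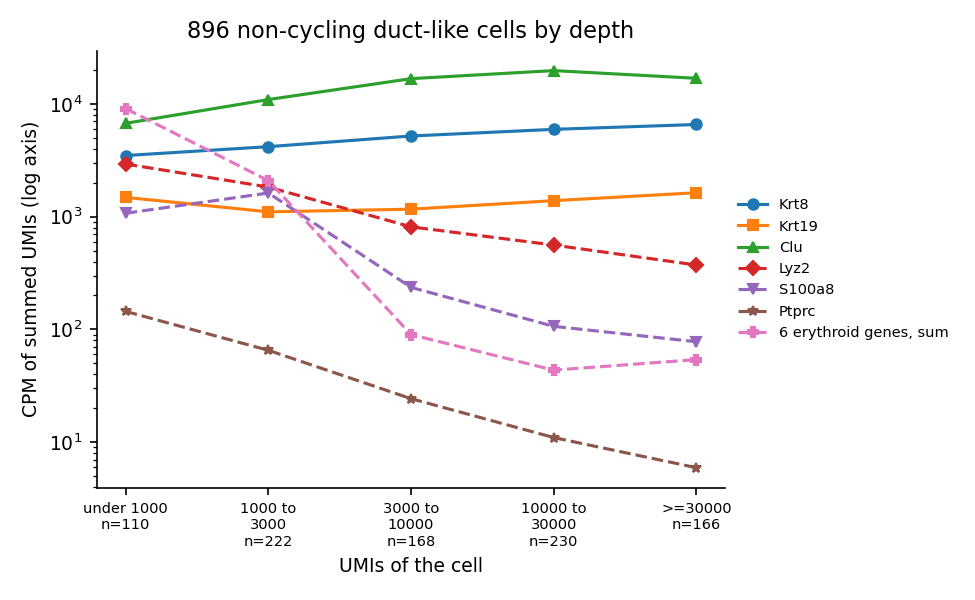
CPM of summed UMIs (vertical log axis) in the 896 cells split by their UMI number into 5 bands (n below each); solid lines are genes of the duct-like profile and dashed lines genes of other cell types. Lyz2, Ptprc and the erythroid sum are at 2927, 145 and 9069 CPM in the shallowest band and at 372, 5.95 and 54.0 CPM in the deepest; Krt19, at 1481 and 1629 CPM, was used by the rule.

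Genes for signals to other cells were also measured. The cytokine Mif had 1017 CPM, Cxcl16, a membrane-bound chemokine, 212 CPM, Cxcl1 222 CPM and Cxcl5, a neutrophil attractant, 42.7 CPM against 5.52 in the C1q cells. Wnt4 had 201 CPM and the growth factor receptor Fgfr3 314 CPM, against 31.9 and 55.7 in the C1q cells. Cd274 (PD-L1), a ligand that restrains T cells, had 2.28 CPM against 18.8 in the C1q cells, and Cd47, which restrains phagocytosis, 395 against 319. The antigen-presenting class II chain Cd74 had 471 CPM against 2670, while the class II genes H2-Aa and H2-Ab1 had 60.7 and 54.6 against 760 and 549.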

How the data were processed

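The values are UMI counts per gene and cell barcode, deposited by the authors as filtered matrices of 55450 genes. They come from 10x 3' libraries made after tissue digestion and dead cell removal, per the labels. The counts were made with Cell Ranger, version 6.1.1 per the file headers and 6.1.2 per the submitters' processing notes, on mm10. Which annotation they used is not stated there. UMIs of each group of cells were summed and scaled to CPM. Ratios of sums have 95% exact conditional binomial intervals, shares have Clopper-Pearson intervals, and no test was run, since each model had 1 library. A gene was counted at a 2-fold ratio with at least 50 CPM in one sum and 30 UMIs over both, and a listed gene with at least 10 UMIs over both. Named were up to 10 genes per direction with the largest ratio among those whose interval excluded 2-fold, and 20 genes with the largest ratio to the C1q cells among those with at least 300 CPM; genes of mitochondria, ribosomal proteins, haemoglobin, the Y chromosome and antigen receptors, Xist and gene models without a name were not eligible. The members and lists were chosen with earlier results of these data known. Sub-clusters used 2000 variable genes, 20 principal components, 15 neighbours and the Leiden method at a resolution of 0.5 (scanpy 1.11.5, numpy 2.4.6, scipy 1.17.1, pandas 2.3.3, matplotlib 3.10.9). The ratio and interval code was checked on simulated data. Scrublet made 0 automatic doublet calls and had not worked. Doublets were therefore kept, and leaving out the 984 cells with the highest scores (8.61%), which held 72 of the duct-like cells (8.04%) and 2 cycling ones, was an alternative. Gene coordinates are GENCODE vM21 on mm10.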

Additional observations from a re-analysis of the deposited data

How the results depend on the processing

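No paired analysis was possible because each model had 1 library. The 896 cells became 624 at Wfdc18 of at least 0.2%, 1068 at 0.05%, 515 with the duct gene sum at 0.5%, 572 with no division gene, 439 with C1q under 0.1%, 786 from 1000 UMIs and 824 without the cells of highest doublet score, and, in alternatives chosen after seeing the data, 564 from 3000 and 396 from 10000 UMIs. Genes at least 2-fold higher than in cycling cells (12) became 24 with no division gene, 106 with equal weight per cell, 354 thinned to 1000 UMIs, 31 with 10% of UMIs subtracted as free RNA and 45 at a minimum of 20 CPM; those lower (56) became 178 thinned and 125 at 20 CPM. Genes higher than in low Wfdc18 cells (7) became 29 with the duct gene sum at 0.5%, 16 with no division gene, 14 with equal weight, 61 thinned and 16 at 20 CPM; those lower (7) became 12 at Wfdc18 of 0.05%, 38 with the duct gene sum at 0.5%, 14 with no division gene, 51 thinned and 19 at 20 CPM. Against hepatocyte-like cells, 898 higher became 256 thinned and 530 lower became 1084 at 20 CPM. The log2 ratio of Pigr over cycling cells turned to −0.74 when thinned. Against hepatocyte-like cells the median of the oncofetal list turned from −1.43 to 1.45 with C1q under 0.1%, that of ERBB and FGF signalling from −1.09 to 0.65 with equal weight, and that of MHC class II from 1.04 to −1.13 when thinned and to −0.21 with the hepatocyte gene sum at 1% (48 cells, chosen after seeing the data). The causes were not tested. Of the other list medians, 1366 values stayed within 1.5-fold of their main value and 38 moved further. A turn was counted only where the main median was at least 2-fold, so smaller medians among these may have changed sign. Limits are 1 library per model, 18 hepatocyte-like cells, and shallow cells that carry RNA of other types.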
